A study of Mus musculus with 6 samples.

Results

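Keratins are the intermediate filament proteins of epithelial cells. The 9 keratins most used to describe mammary epithelium were taken by gene symbol from the 55487 genes of the deposited tables: Krt7, Krt8, Krt18 and Krt19 of simple epithelium, Krt5, Krt14, Krt15 and Krt17 of basal and stratified epithelium, and Krt80, a keratin of broad epithelial distribution. RNA sequencing had been done on untreated cells of the mouse mammary carcinoma line 4T-1, of wild-type genotype (n = 3) or with a Lyplal1 knockout (n = 3). The library names carry NC for every wild-type library and sg2 for every knockout library. Lyplal1 encodes a protein related to the acyl-protein thioesterases. The labels do not say whether the knockout cells are 1 clone or a pool, nor whether the 3 libraries of a genotype came from separate cultures, so the p-values may measure technical spread only.

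A keratin filament is built from heterodimers of 1 type I and 1 type II chain. Among the 9, Krt14, Krt15, Krt17, Krt18 and Krt19 are type I, and Krt5, Krt7, Krt8 and Krt80 are type II. In the mammary gland the luminal cells that line ducts and alveoli carry Krt8, Krt18, Krt19 and Krt7, while Krt5 and Krt14 mark the basal, myoepithelial layer. Filaments are anchored to neighbouring cells at desmosomes and to the basement membrane at hemidesmosomes.

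Total counts ran from 16731209 to 17108975 per library. The targeted transcript was lower in every knockout library but did not pass the test. Wild-type cells gave 76, 73 and 68 Lyplal1 counts against 54, 48 and 58 for knockout cells (log2 fold change -0.28 ± 0.15 SE, adjusted p = 0.0886, edgeR's quasi-likelihood test), so every direction given here rests on the labels. Of 13022 genes that passed the filter on low counts, 10711 were called at an adjusted p under 0.05, which is 82.3%. Genes higher in the knockout made up 41.3% and genes lower made up 40.9%. Values are counts scaled to a common library size (CPM) with TMM factors, which assume that most genes do not change. Under upper-quartile scaling or total counts alone, the median of all genes fell by 0.13 and 0.14 on the log2 scale, and the calls were 4630 higher to 6189 lower and 4613 to 6213, against 5382 to 5329 with TMM. With limma-trend on the deposited TPM, which changes both the unit and the test, that median was -0.19 to -0.21, with 4102 to 4115 genes higher and 6569 to 6591 lower.

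The knockout libraries also held transcripts of lung epithelium. All 6 markers of that list were higher in every knockout library than in any wild-type library, though 83.1% of all tested genes also did not overlap in CPM. Their summed level was 1.3 to 2.02 TPM in wild type and 157 to 765 TPM in the knockout. Sftpc, a surfactant protein gene of alveolar cells, had 1, 0 and 0 counts in wild type and 109, 142 and 691 in the knockout. Scgb1a1, a secretory product of airway cells, had 2, 1 and 2 counts against 185, 239 and 1085. Knockout replicate 3 stood apart from the other knockout libraries in these genes. Of 5 tested lung markers 4 were called higher, beside 41.3% of all tested genes. Only 1 was called higher when wild-type replicate 1, 2 or 3 was left out, and 2 with no filter. All 6 had wild-type counts of 6 or fewer. Those tested thus passed the filter through the knockout libraries alone, and their calls are not separate evidence of a rise. Luminal keratins are also known in lung epithelium, so these values are set beside the keratins below.

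Simple keratins made up nearly all keratin RNA of the 9 genes in both genotypes. In wild-type cells the 4 simple keratins held 99.5% ± 0.025 (SD, n = 3) of the summed TPM, and in the knockout 99.1% ± 0.00508. The order of the wild-type levels, compared per length in TPM, was Krt18 (3900 ± 93.4), Krt19 (935 ± 15.6), Krt8 (856 ± 6.07), Krt7 (485 ± 10.9) and Krt80 (28.4 ± 0.749). Krt14 followed at 3.89 ± 0.575 TPM, and Krt15, Krt17 and Krt5 were below 1 TPM on average. Krt18 ranked 13th of all genes by mean TPM in wild type, Krt19 81st and Krt8 94th. Neighbours in this order did not overlap between libraries, except Krt17 (0 to 0.154 TPM) and Krt5 (0 to 0.109 TPM).

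In the knockout cells the order changed. Krt18 was still highest at 1240 ± 36.1 TPM, but Krt7 came next at 708 ± 7.23, ahead of Krt8 at 483 ± 11.7 and Krt19 at 209 ± 7.53. By rank among all genes Krt18 went from 13th to 62nd, Krt19 from 81st to 859th and Krt8 from 94th to 271st, while Krt7 went from 231st to 147th. Krt80 was at 19.6 ± 0.769 TPM and Krt14 at 3.59 ± 0.419. The place of Krt7 in both orders depends on the gene length used. The deposited TPM divides by the union of all annotated exons, 7049 bases for Krt7, while its coding transcript has 4094 bases, of which 1586 lie within the RefSeq gene. On the coding transcript length, Krt7 was at 836 ± 18.7 TPM in wild type, where its libraries overlapped those of Krt8 (849 to 860), and at 1220 ± 12.5 in the knockout, where they overlapped those of Krt18 (1200 to 1280). On the length within the RefSeq gene, Krt7 stood at 2160 ± 48.4 and 3150 ± 32.2 TPM, and was then above Krt18 (1280 ± 37) in the knockout. Differences between genotypes within a gene do not depend on length.

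**Figure D1:**
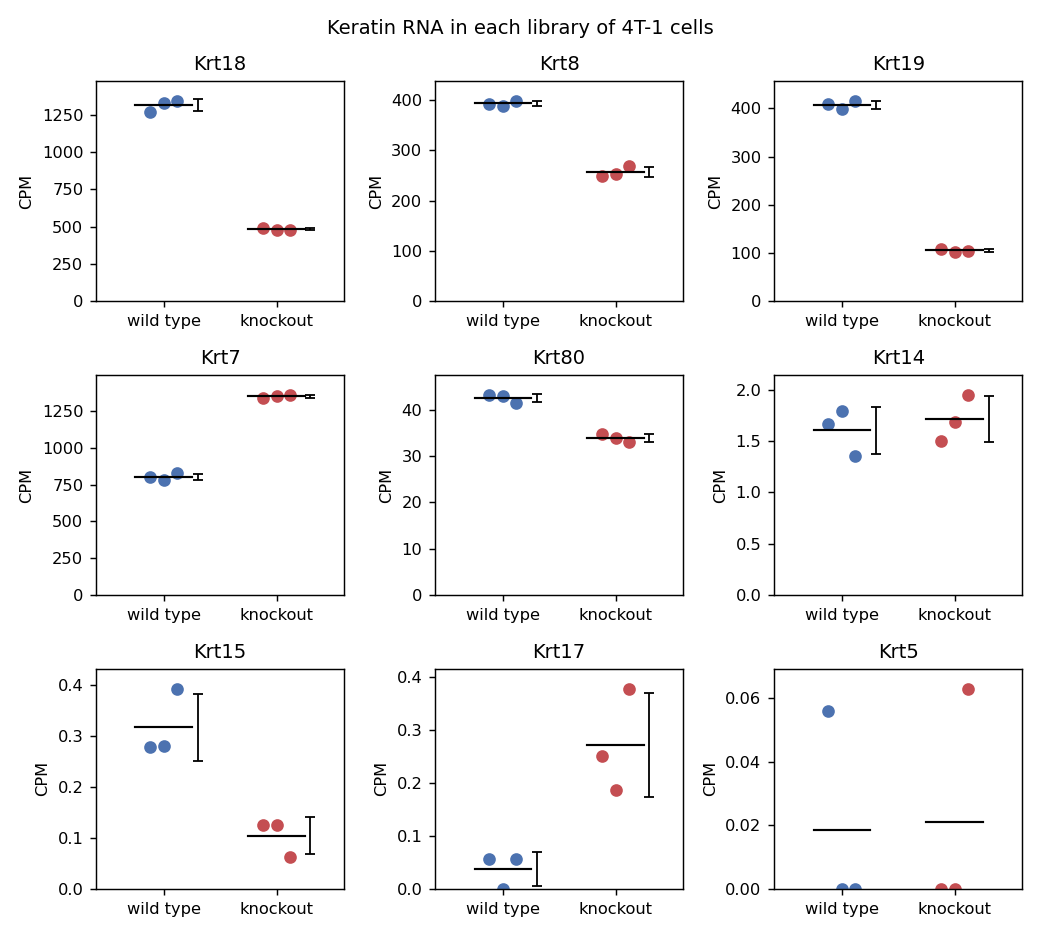
CPM of each of the 9 keratins in the 3 wild-type (blue) and 3 knockout (red) libraries, on linear axes that start at 0 and differ between panels. Horizontal lines are group means and bars are SD (none is drawn for Krt5). Krt18, Krt8, Krt19 and Krt80 lay lower in every knockout library, Krt7 lay higher, and Krt14 and Krt5 overlapped.

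Of the 9 keratins, 6 passed the filter on low counts; among these, 1 was called higher, 4 were called lower and 1 was not called. The share called is close to the 82.3% of all tested genes, so the number of calls does not set the keratins apart. The median log2 fold change of the 6 was -0.47, beside 0.00 over all tested genes. In 7 of the 9, among them 5 of the 6 tested, the genotypes did not overlap in CPM, against 83.1% of all tested genes.

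Krt18 and Krt8, the type I and type II chains that pair in simple epithelium, were both lower in the knockout, but to different extents. Krt18 (ENSMUSG00000023043) was at 1270, 1330 and 1340 CPM in wild-type cells and at 493, 480 and 479 CPM in the knockout. Every knockout library was far below every wild-type library. The log2 fold change was -1.44 ± 0.0317 (SE), a level 2.72-fold higher in wild type (adjusted p = 4.2e-24, edgeR). Of all tested genes, 83.6% changed by less. Krt8 (ENSMUSG00000049382) was at 393, 389 and 398 CPM in wild type and at 249, 253 and 268 CPM in the knockout. The genotypes again did not overlap, and knockout replicate 3 was the highest of its group. Krt8 fell by 0.62 ± 0.0341 on the log2 scale, 1.53-fold (adjusted p = 3.31e-15, edgeR), a size that exceeded that of 53.2% of tested genes.

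In TPM, wild-type libraries had a Krt8 to Krt18 ratio of 0.226, 0.215 and 0.218, and knockout libraries had 0.371, 0.386 and 0.412. It was 1.77-fold higher in the knockout, with no overlap. The two-sided exact permutation p was 0.1, the smallest that 3 libraries against 3 can give.

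Both genes lie side by side on chromosome 15 of GRCm38, Krt8 at 101996698 to 102004482 on the minus strand and Krt18 at 102028180 to 102032027 on the plus strand. Their starts face each other across 23697 bases, and no gene of GENCODE M21 lies wholly between them. A long noncoding RNA gene, Gm36026, overlaps the start of Krt8 by 101 exon bases on the opposite strand. It had 12, 32 and 19 counts in wild type and 3, 2 and 4 in the knockout, beside 3980 to 7076 counts of Krt8. The next tested gene beyond Krt18, Eif4b, a translation initiation factor gene, fell by 0.56 ± 0.0303 (adjusted p = 1.7e-15, edgeR). Farther on, Tns2 fell by 0.14 ± 0.0364 (adjusted p = 0.000815) and Spryd3 rose by 0.34 ± 0.057 (adjusted p = 5.4e-06), both on the log2 scale with edgeR. Genes around this pair thus moved in both directions.

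Krt19, the smallest keratin and a type I chain of luminal cells that lacks most of the usual tail, had the largest fold change of the 5 called. Krt19 (ENSMUSG00000020911, chromosome 11, 100140810 to 100148665, minus strand) was at 408, 399 and 415 CPM in wild type and at 109, 102 and 105 CPM in the knockout. The libraries of each genotype lay within a few percent of each other. The log2 fold change was -1.95 ± 0.0361, a level 3.87-fold higher in wild type (adjusted p = 9.28e-26, edgeR), larger than that of 90% of tested genes. Its ratio to the other luminal type I chain changed too: Krt18 over Krt19 stood at 4.03, 4.31 and 4.17 in wild-type libraries against 5.85, 6.07 and 5.88 in knockout libraries (1.42-fold higher, exact permutation p = 0.1, the smallest possible).

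Krt7, a type II chain of ductal and glandular epithelium, moved the other way. Krt7 (ENSMUSG00000023039, chromosome 15, 101411043 to 101430313, plus strand) was at 801, 782 and 826 CPM in wild type and at 1340, 1350 and 1360 CPM in the knockout. All knockout libraries were above all wild-type libraries. Krt7 rose by 0.75 ± 0.0306 on the log2 scale, 1.68-fold (adjusted p = 3.57e-18, edgeR). Of tested genes 61.3% changed by less. Between the type II chains, Krt7 over Krt8 stood at 0.566, 0.559 and 0.577 in wild-type libraries against 1.5, 1.48 and 1.41 in knockout libraries, a 2.58-fold difference (exact permutation p = 0.1, the smallest possible).

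Krt80 (ENSMUSG00000037185), a type II chain that is found near desmosomes and cell margins, fell modestly. It was at 43.2, 42.9 and 41.5 CPM in wild type and at 34.7, 34 and 33.1 CPM in the knockout, without overlap. The log2 fold change was -0.33 ± 0.0541 (adjusted p = 4.33e-06, edgeR). Krt80 lies at 101347444 to 101370162 on chromosome 15, minus strand, and only 40880 bases separate it from Krt7, which rose. Gm35853, an antisense gene that shares 263 exon bases with Krt80, had 110 to 125 counts in wild type and 62 to 83 in the knockout. Gm671, which shares 77 exon bases with Krt7 on the opposite strand, had 26 to 31 and 7 to 8 counts. The strand setting of the counting is not given in the sources used here, so reads from these antisense partners and the keratins cannot be told apart. Their counts were small beside the 526 to 775 counts of Krt80 and the 13961 to 21676 of Krt7.

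Promoter sequence from RefSeq (GRCm38.p6, 250 bases before to 50 after the annotated start) was held for 5 of the 9 keratins, Krt5, Krt7, Krt8, Krt14 and Krt18. The stretches of Krt7 and Krt18 are shown because Krt7 rose while Krt18, also on chromosome 15, fell. Krt7 is given from chr15:101412153-101412401, plus strand, and Krt18 from chr15:102027966-102028179, plus strand, up to the annotated transcript. Both run 5′ to 3′, and capitals mark CACCTG, the E-box form bound by Snail and ZEB repressors, and GGGCGG, the GC box bound by Sp1, read on either strand.
Krt7: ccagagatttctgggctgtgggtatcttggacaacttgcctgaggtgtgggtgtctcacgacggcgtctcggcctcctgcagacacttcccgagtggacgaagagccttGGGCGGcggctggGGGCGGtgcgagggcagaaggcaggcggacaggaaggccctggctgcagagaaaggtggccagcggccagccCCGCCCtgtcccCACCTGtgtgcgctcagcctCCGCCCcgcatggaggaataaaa
Krt18: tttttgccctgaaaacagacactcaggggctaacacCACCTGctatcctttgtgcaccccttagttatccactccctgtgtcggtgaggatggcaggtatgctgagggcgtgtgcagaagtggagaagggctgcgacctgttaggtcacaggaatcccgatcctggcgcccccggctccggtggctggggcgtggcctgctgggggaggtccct

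The E-box letters, searched on both strands, were found in all 3 windows described here, those of Krt7 (bases -44 to -39 from the RefSeq start), Krt18 (-214 to -209) and Krt5 (-128 to -123), and in 20.2% of 32851 promoters of the same length. GGGCGG occurred 4 times in the Krt7 window and was not in the windows of Krt18 and Krt5; 35.7% of promoters hold it. The letters TGANTCA (AP-1), CCAAT, TTCNNNGAA (STAT) and GAAANNGAA (interferon response core) were not in these 3 windows. Krt7, which rose, and Krt18, which fell, therefore share the E-box letters and differ in the GC boxes; the data hold no measure of binding at either. The windows of Krt8 and Krt14 are not described here.

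The basal and stratified keratins had few or no counts in both genotypes. Krt14 (ENSMUSG00000045545), the type I partner of Krt5 in basal cells, had 30, 32 and 24 counts in wild type and 24, 27 and 31 in the knockout. At 1.61 ± 0.23 and 1.71 ± 0.226 CPM the genotypes overlapped, and the log2 fold change of 0.09 ± 0.225 was not called (adjusted p = 0.713, edgeR). Krt5 (ENSMUSG00000061527), which marks the myoepithelial layer, had 1 count in each genotype, a pooled ratio of 1.12 with an exact 95% interval of 0.0142 to 87.7.

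Krt15 and Krt17 also failed the filter but did not overlap between genotypes. Krt15 (ENSMUSG00000054146), a keratin of basal and progenitor cells, had 5, 5 and 7 counts in wild type and 2, 2 and 1 in the knockout, a ratio of 0.329 (0.0948 to 0.928). Krt17 (ENSMUSG00000035557), a keratin induced by injury and stress, had 1, 0 and 1 counts in wild type and 4, 3 and 6 in the knockout, a ratio of 7.27 (1.64 to 66.3). These intervals cover counting error only. With no filter edgeR gave adjusted p = 0.0146 for Krt17 and 0.0907 for Krt15, while DESeq2 gave 0.0948 and 0.231. Over 756 bases the Krt17 transcript is 91.0% identical to Krt14, so reads could have been split between them. Knockout replicate 3, the library highest in lung markers, had the most Krt17 and Krt14 of its group; the part of other cells' RNA in these counts was not tested.

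The summed keratin level was lower in every knockout library, and its makeup differed between genotypes. The 9 keratins summed to 6210 ± 91.4 TPM in wild type and 2670 ± 36.5 in the knockout, a ratio of 0.430. The size of this fall depends on length and unit: the ratio was 0.479 on coding transcript length, 0.627 on the length within the RefSeq gene and 0.754 in CPM. Type I chains went from 4840 ± 90.5 to 1460 ± 42.1 TPM, a ratio of 0.301, and were lower under every length and unit tried (0.297 to 0.343). Type II chains went from 1370 ± 16.2 to 1210 ± 6.7 TPM, a ratio of 0.884, whose direction depends on the length given to Krt7: it was 0.996 on coding transcript length, 1.18 on the length within the RefSeq gene and 1.33 in CPM. Type II over type I came to 0.290, 0.277 and 0.282 in wild-type libraries against 0.803, 0.834 and 0.859 in knockout libraries. That ratio was 2.94-fold higher in the knockout in TPM and 3.34 to 3.98-fold higher with the other lengths or CPM. These sums are descriptions over chosen genes and carry no test.

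Within the pool, Krt18 went from 62.8% ± 0.71 to 46.6% ± 0.716 of the summed TPM and Krt19 from 15.1% ± 0.322 to 7.85% ± 0.199. Krt7 went from 7.82% ± 0.178 to 26.5% ± 0.231. Krt8 took 13.8% ± 0.232 in wild type and 18.1% ± 0.687 in the knockout: its share was larger although its level was lower. With the RefSeq length, Krt7 held 25.7% ± 0.451 and 59.7% ± 0.295, and the share of Krt8 was then lower in the knockout (11% ± 0.145 against 9.95% ± 0.354).

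**Figure D2:**
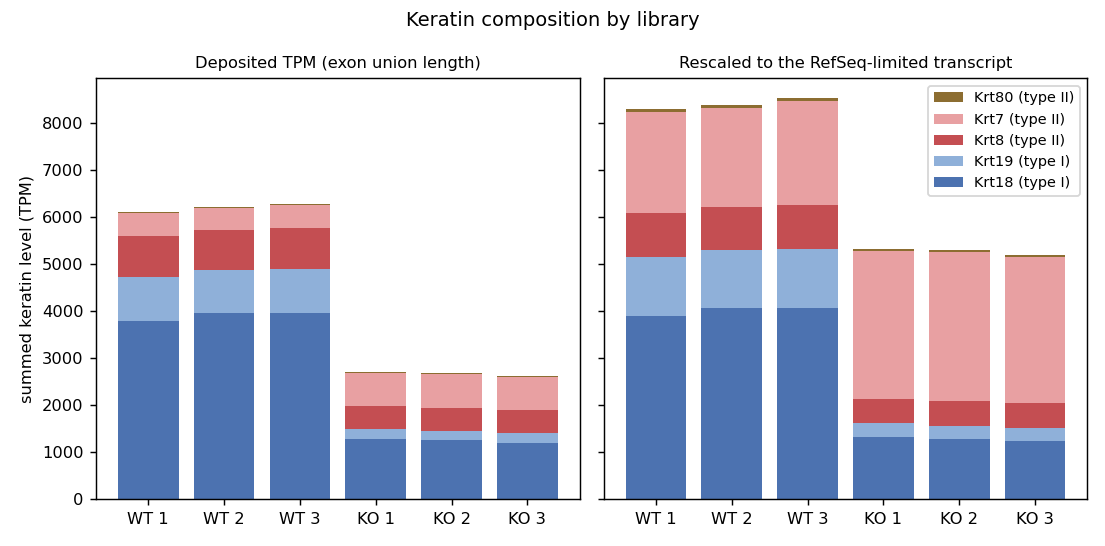
Summed level of the 5 abundant keratins in each library, stacked by gene, with type I chains in blue and type II chains in red or brown (vertical axis from 0, in TPM). The left panel uses the deposited TPM and the right one rescales each gene to the part of its coding transcript within the RefSeq gene. In both, the blue part shrinks in all 3 knockout (KO) libraries relative to wild type (WT), while the height of the Krt7 part depends on the length.

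The 5 called keratins varied little among the knockout libraries, unlike the lung markers. Divided by the mean of replicates 1 and 2, knockout replicate 3 had a value of 1.01 for Krt7, 1.07 for Krt8, 0.984 for Krt18, 0.996 for Krt19 and 0.963 for Krt80, while the same ratio was 1.62 to 6.76 for the 6 lung markers. Among keratins with few counts it was 1.22 for Krt14, 0.504 for Krt15 and 1.73 for Krt17, the last within the range of the lung markers. The 5 called keratins kept their direction and call when any library was left out, knockout replicate 3 included. Other cell types gave mixed values. Cd68, a lysosomal gene of macrophages also present in other cells, had 142 to 149 counts in wild type and 7054 to 7657 in the knockout, whereas the leukocyte marker Ptprc had 3 to 7 and 1 to 4. Lyz2, a lysozyme of myeloid and alveolar cells, had 1, 0 and 0 against 28, 45 and 263 counts. The summed leukocyte list, nearly all of it Cd68, was 27.1 to 28.7 TPM in wild type and 1310 to 1430 in the knockout. The fibroblast list, mostly Pdgfra, was 29.5 to 30.7 and 62.9 to 67.4, though its other tested member, Col1a1, fell by 1.40 ± 0.254 on the log2 scale (adjusted p = 3.66e-05, edgeR), and the endothelial list 0.115 to 0.172 and 0.835 to 4.41. Fewer cells carrying a keratin and less keratin RNA per cell cannot be told apart in bulk libraries.

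**Figure D3:**
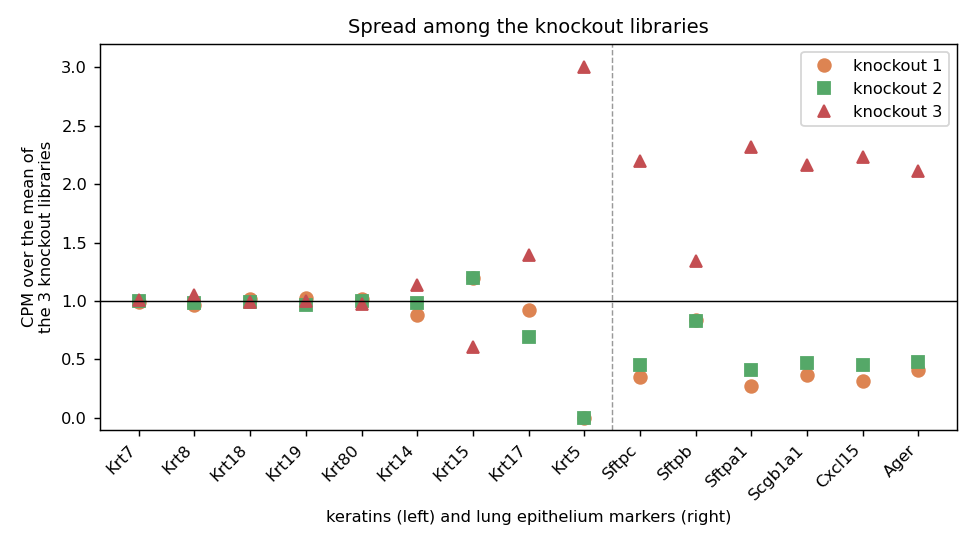
CPM of each knockout library divided by the mean of the 3, for the 9 keratins (left of the dashed line) and 6 lung epithelium markers (right). The 5 called keratins lie between 0.969 and 1.05 and the low-count ones spread more widely (Krt17 up to 1.39, and Krt5, with 1 count, at 0 and 3), while knockout replicate 3 lies between 1.34 and 2.32 for the lung markers.

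Beyond the 9 members, 44 other keratin genes were in the tables, of which 27 had no count in any library and 2 passed the filter. Krt16, a stress-induced type I keratin of stratified epithelium, rose from a very low level. It had 6, 7 and 3 counts in wild type and 85, 79 and 89 in the knockout, which is 0.299 ± 0.116 and 5.28 ± 0.335 CPM (log2 fold change 4.11 ± 0.251, adjusted p = 2.72e-14, edgeR). It passed the filter through the knockout libraries alone. Krt10, a keratin of suprabasal epidermis, had 48, 47 and 48 against 44, 49 and 48 counts and was not called (adjusted p = 0.45). Krt13, named here after its values were seen, had 7, 14 and 12 counts in wild type and 0, 0 and 1 in the knockout, a ratio of 0.0339 (95% interval 0.000833 to 0.202). Even in the knockout Krt16 was at 11.8 to 12.9 TPM, small beside the 1200 to 1280 TPM of Krt18.

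Of 15 filament genes other than keratins 6 passed the filter, and edgeR called all 6 lower in the knockout, beside 40.9% of all tested genes (median log2 fold change -0.94, beside 0.00). Vim, the vimentin of mesenchymal cells that carcinoma cells can express beside keratins, went from 3210 ± 40.9 to 606 ± 14.2 CPM (-2.41 ± 0.0317, adjusted p = 4.48e-29, edgeR). Nes, the filament of progenitor cells, was at -0.97 ± 0.0369, Lmnb1 of the nuclear lamina at -0.92 ± 0.0396 and Lmna at -0.62 ± 0.0317, all log2 fold changes with adjusted p of 5.43e-16 or below. DESeq2, which tested 9 of the 15, called 1 higher, Des, the muscle desmin, with 2 to 4 counts in wild type and 3, 4 and 43 in the knockout. Thus in the knockout vimentin fell together with Krt18 and Krt19.

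At desmosomes, which tie keratin to the cell border, 11 of 14 listed genes were tested: 3 were called higher and 7 lower, with a median log2 fold change of -0.20. Of all tested genes 41.3% were called higher and 40.9% lower. Dsp, desmoplakin, which binds the filaments, fell by 0.25 ± 0.0338, and Jup, plakoglobin, fell by 0.37 ± 0.0361. The larger falls were in linkers of stratified tissue: Evpl, envoplakin, at -3.35 ± 0.238, Pkp1, plakophilin 1, at -2.16 ± 0.12, and Ppl, periplakin, at -1.55 ± 0.062. Evpl had 87, 89 and 90 counts in wild type and 9, 4 and 10 in the knockout, and passed the filter through the wild-type libraries. Perp, a membrane protein of desmosomes, rose by 0.69 ± 0.0366, and Eppk1, epiplakin, rose by 0.69 ± 0.0807. Each of these had an adjusted p of 1.91e-07 or below with edgeR. Of the 3 called higher, Pkp3 (0.13) lost its call under upper-quartile scaling, total counts and both TPM fits.

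At hemidesmosomes all 9 listed genes were tested, with 3 called higher, 6 lower and a median of -0.12. The shares over all tested genes were 41.3% and 40.9%. Lamb3 and Lama3, which encode laminin chains of the basement membrane, rose by 1.0 ± 0.0355 and 1.06 ± 0.0465 (adjusted p of 1.98e-17 or below, edgeR). The receptor chains fell, Itgb4 by 0.90 ± 0.0488 and Itga6 by 0.58 ± 0.0366. Plec, plectin, the linker between keratin and Itgb4, was called higher at 0.13 ± 0.0322 (adjusted p = 0.000497), a call lost under upper-quartile scaling, total counts and both TPM fits. Plec also shares 205 exon bases on the same strand with Parp10, which had 244 to 272 counts in wild type and 2121 to 2348 in the knockout.

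**Figure D4:**
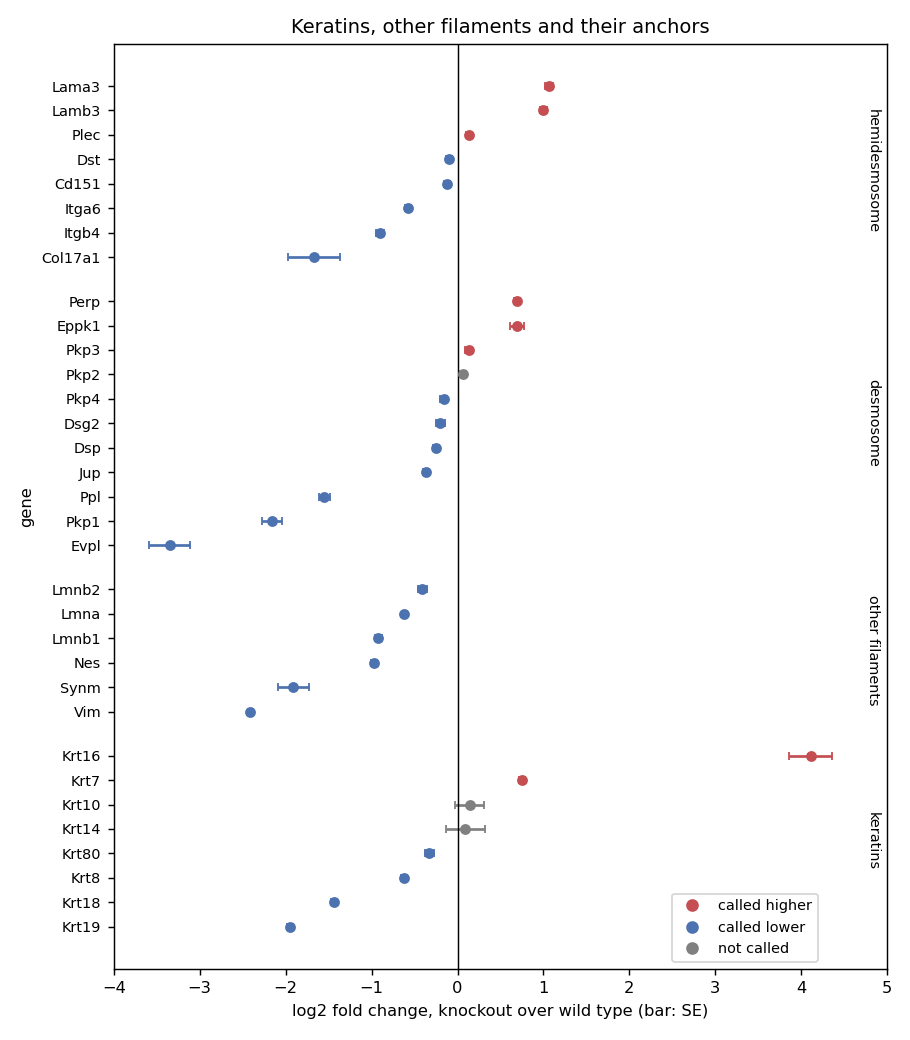
Log2 fold change (knockout over wild type) with SE for the tested keratins, other filament genes and genes of desmosomes and hemidesmosomes (1 tested hemidesmosome gene is not drawn). Red points were called higher, blue lower and grey not called at an adjusted p of 0.05 (edgeR). Krt16 and Vim lie at the far ends of their groups, and the other filament genes are all below 0.

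Of 8 genes for proteins that bind keratins or govern their turnover, 3 were called higher, 2 lower and 3 were not called. Among all tested genes 41.3% were called higher and 40.9% lower. Stub1, the ubiquitin ligase CHIP, rose by 0.61 ± 0.0488, and Dnajb6, a chaperone that binds Krt18, rose by 0.68 ± 0.0657. Tradd, an adaptor of the TNF receptor that Krt18 can bind, fell by 0.59 ± 0.0663, and Pnn, pinin, a desmosome-linked and nuclear protein, fell by 0.40 ± 0.0472. Their adjusted p values were 1.94e-08 or below with edgeR. Stub1 shares 1084 exon bases with Jmjd8 on the opposite strand, and the call of the third rise, Fbf1 (0.11), was lost in 7 of 15 alternatives.

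Regulators of epithelial genes moved in both directions: of 20 listed, 18 were tested, 6 called higher and 8 lower (median -0.16). Over all tested genes 41.3% were called higher and 40.9% lower, so the number of calls does not set this list apart. Esrp1, a splicing regulator of epithelial cells, had 610 to 653 counts in wild type and 0 to 5 in the knockout. It passed the filter through wild type alone. Ehf, among the 6 called higher, passed through the knockout alone, with 18, 22 and 16 counts there and 0 in each wild-type library. Ovol1 fell by 1.32 ± 0.194, Ovol2 by 1.36 ± 0.272 and Klf4 by 0.80 ± 0.0815, all transcription factors of epithelial differentiation (adjusted p of 5.62e-05 or below, edgeR). Elf3 rose by 0.88 ± 0.0694, Sp1 by 0.51 ± 0.0353 and Gata3, a factor of luminal identity, by 0.37 ± 0.0376 (adjusted p of 7.66e-10 or below). Grhl2 (-0.06, adjusted p = 0.334) and Klf5 (-0.03, adjusted p = 0.541) were not called, though both were called lower under upper-quartile scaling, total counts and TPM. Trp63, the p63 factor of basal cells that drives Krt5 and Krt14, had 2, 3 and 2 counts in wild type and 0 in each knockout library.

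Of 10 listed repressors of epithelial genes, several of which bind CACCTG, 7 were tested, with 1 called higher and 6 lower, beside 41.3% and 40.9% of all tested genes (median -1.05, beside 0.00). Snai1 fell by 1.07 ± 0.0704, Tcf4 by 1.05 ± 0.0358, Tcf3 by 0.66 ± 0.0428 and Foxc2 by 1.41 ± 0.066 (adjusted p of 3.76e-13 or below, edgeR). Twist2, among the 6 called lower, had 54, 58 and 46 counts in wild type and 0, 2 and 1 in the knockout. It passed the filter through wild type alone, so its call is not separate evidence of a fall. The 1 call in the other direction, Twist1 (0.33), was lost in both TPM fits. Zeb1 had 1, 5 and 2 counts in wild type and 0, 0 and 1 in the knockout.

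Among other markers of luminal cells, 15 of 23 were tested, with 7 called higher and 7 lower, beside 41.3% and 40.9% of all tested genes. Epcam, an adhesion molecule of simple epithelium, fell by 1.59 ± 0.0501, and Cd24a by 0.76 ± 0.0356. Cldn4, a tight junction gene, rose by 1.21 ± 0.0377, and Cldn3 had 1, 0 and 1 counts in wild type and 273, 280 and 295 in the knockout. Cdh1, E-cadherin, was at 946 ± 8.12 and 845 ± 16.9 CPM, a fall of 0.16 ± 0.03. Of 17 basal and myoepithelial markers 8 were tested, 1 called higher and 7 lower, beside 41.3% and 40.9% of all tested genes. Those called lower with the smallest adjusted p were Cdh3, Itga6, Itgb1 and Procr. Cdh3 had 98, 112 and 116 counts in wild type and 0, 2 and 0 in the knockout, and passed the filter through wild type alone. The same holds for Id4, also called lower, with 24, 38 and 24 counts against 0 in each knockout library. Itga6 fell by 0.58 ± 0.0366, Itgb1 by 0.44 ± 0.0305 and Procr by 0.65 ± 0.0516. The 1 called higher was the contractile gene Mylk, with 20, 18 and 26 counts in wild type and 80, 75 and 115 in the knockout (log2 fold change 2.23 ± 0.206, adjusted p = 1.85e-10, edgeR). The contractile genes Acta2 (1 to 3 counts against 3 to 17) and Myh11 (0 to 2 against 4 to 14) were near 0 in wild type and low in the knockout. Other members of the list were near 0 in both genotypes and overlapped: Cnn1 (2, 4 and 2 against 2, 4 and 3), Tagln (2, 3 and 1 against 1, 0 and 5) and Oxtr (3, 1 and 2 against 2, 0 and 1). Mylk, Acta2 and Myh11 were each highest in knockout replicate 3, the library highest in lung markers. Neither marker list was present or absent as a whole in wild type: the basal list also held abundant genes such as Itgb1, an integrin chain of many cell types, at 1520 ± 28.8 CPM, and the luminal genes Elf5, Pgr, Prlr, Kit, Csn2 and Wap had 1 count or none in each wild-type library.

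Genes whose CPM profile over the 6 libraries was most like that of a keratin were ranked among 10097 genes of at least 5 CPM by the root mean square difference of log2 values, each centred on its own mean. For Krt8 these were Lmna (0.0131), Bub1b (0.0181) and Galk1 (0.0191). For Krt19 they were Tfdp2 (0.0291), Rrm2 (0.0296) and Plekhh2 (0.0323). Krt80 was closest to Myo18a (0.00947), D230025D16Rik (0.0118) and Kmt2d (0.0123), and Krt14, whose profile is set by few counts, to Mcrs1 (0.0515), C1d (0.0666) and Mrpl11 (0.0668). With 2 genotypes such likeness mostly repeats the size of the fold change.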

How the data were processed

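Gene-level counts (whole numbers) and TPM were deposited by the authors for 3 wild-type and 3 Lyplal1 knockout libraries of 4T-1 cells. Per the labels' protocols, RNA was extracted with Trizol and made into DNBseq libraries. STAR 2.7.8a, featureCounts 2.0.1 and GRCm38 are listed in the submitters' processing notes. Strand and multi-mapping settings were not given in the sources used. The 12 single-library files equalled the whole-series columns. Of 55487 identifiers 55227 matched GENCODE M21, which gave symbols, positions and lengths; the deposited TPM fitted its exon union lengths within 2% for 98.9% of 8898 genes.

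Counts were tested with edgeR 4.0.16 (robust quasi-likelihood F test, TMM, filterByExpr with a minimum count of 10, two-sided, Benjamini-Hochberg over 13022 genes, threshold 0.05), in R 4.3.3. Ratios per library were tested with exact permutations (SciPy 1.17.1). Near-identical copies (at least 90% over 500 bases) were sought with blastn 2.17.0: Krt8-ps matched Krt8 (98.6%, 3 to 9 counts) and Gm5200 matched Krt18 (90.5%, 0 to 2 counts). Tested on simulated counts for all 13022 genes, edgeR found 84.1% of 1.5-fold changes and 97% of 2-fold changes, and 16 of 12595 unchanged genes were called; few genes were changed there, so scaling under wide change was not tested.

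The keratins and lists were chosen with earlier results of these data known. Named are all 9 keratins, other keratins past the filter, up to 4 list members with the smallest adjusted p, and anchors, markers or regulators picked for their role (Dsp, Jup, Plec, Itgb4, Grhl2, Ovol1, Ovol2, Trp63, Zeb1, Klf4, Klf5, Vim, Epcam, Cdh1). List genes with a weak call, neighbouring genes and marker genes of other cells were added after their values were seen. So were Eppk1, the contractile markers and some list genes that passed the filter through a single genotype. Alternatives were RLE, upper-quartile and no factors, DESeq2 1.42.0, no filter, 1 CPM in 3 libraries, a block for the replicate number, limma-trend (limma 3.58.1) on log2(TPM + 1) and log2(TPM + 0.1), and each library left out. Shorter lengths for TPM were added after seeing the data. Some genes and sequences that the rules take are not reported here. Promoters came from the RefSeq table of GRCm38.p6.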

Additional observations from a re-analysis of the deposited data

How the results depend on the processing

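The 5 called keratins kept their direction and their call in all 15 alternatives, with log2 fold changes of 0.54 to 0.77 for Krt7, -0.82 to -0.59 for Krt8, -1.65 to -1.42 for Krt18, -2.16 to -1.92 for Krt19 and -0.53 to -0.30 for Krt80. Krt14 (-0.11 to 0.18) was called in none. With no filter the keratins called higher became 2, through Krt17. The replicate number as a block gave 5430 genes higher and 5368 lower; the numbers did not pair the libraries (correlations of deviations of -0.007, 0.042 and 0.013), and no keratin call changed under the block. In CPM, on coding transcript length and on the length within the RefSeq gene, in that order, the knockout over wild-type ratio of the summed keratins was 0.754, 0.479 and 0.627, of type II over type I 3.87, 3.34 and 3.98, of the type II sum 1.33, 0.996 and 1.18, and of the simple share 0.999, 0.995 and 0.999; the type I sum was 0.343 in CPM. The counts are the same in each, so only length and scaling differ. Leaving out 1 library kept the summed ratio at 0.426 to 0.433. Depth limits Krt5, Krt15 and Krt17, each with 7 counts or fewer in every library.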
